A study of Mus musculus with 9 samples.

Results

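Immunoglobulin variable (V) gene segments were read out in 9 mouse RNA-seq libraries: 3 of CIA mice given luteolin (a plant flavone), 3 of untreated CIA mice and 3 of control mice. The labels call the cells spleen CD4+ T cells. Strain, age, sex, dose and time of treatment, and whether a library is 1 animal or a pool, are not given in the sources used here, so the p-values measure the spread between these libraries, which may be technical. A row of the count table was taken as a member when its name began with Ighv, Igkv or Iglv and a digit and its counts summed to at least 500 over the 9 libraries. This chose 139 of the table's 346 V rows, out of 56860 rows in all. A further 160 V rows had fewer counts and 47 had none. The members were therefore chosen by their abundance in these same libraries, which is given below as a description. The lowest members by summed count were Ighv5-12 with 518, Ighv1-62-3 with 557 and Ighv1-74 with 581, and the rows just below the minimum were Ighv1-12 with 493 and Ighv1-11 and Igkv1-99 with 476 each.

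A V segment encodes most of the antigen-binding domain of an antibody chain. In a developing B cell a V segment of the heavy chain locus is joined to a D and a J segment, and a V segment of the kappa or lambda locus to a J segment, so that a mature B cell as a rule transcribes a single productive heavy and a single productive light chain gene. The V segments found in bulk RNA thus list which rearranged genes its B-lineage cells transcribe. Plasma cells, the antibody-secreting end stage, hold far more of this RNA per cell than resting B cells do. T cells rearrange receptor genes of other loci. In bulk RNA fewer B-lineage cells and less RNA per cell cannot be told apart, and counts give neither clones nor the joined D and J segments.

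The 139 members comprised 74 of 183 Igh rows, 62 of 160 Igk rows and all 3 Igl rows. In the coordinates of the deposited table (mm39) the Igh members lay at chr12:113551887-115964081, all on the minus strand and in 14 families by name. The Igk members lay at chr6:67532481-70681161 in 16 families, 26 on the plus and 36 on the minus strand, and the Igl members at chr16:18903767-19079609. Their exonic lengths ran from 338 to 501 bases, a leader exon and a V exon in most. Every member had counts in every library, with a lowest single value of 9 counts and a median sum of 2655. All 139 passed the filter on low counts. Ighv4-2 is annotated as a pseudogene.

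The segments that carried most of the counts, or that form known pairs, are shown by the last 120 coding bases of the germline V exon, from the GENCODE M21 transcripts (build GRCm38). Capitals run from the last in-frame cysteine codon to the end of the segment, the germline part of the third complementarity-determining region, where joining adds bases. Ighv11-2 (chr12:114048241-114048360, minus strand), Ighv12-3 (chr12:114366521-114366640, minus) and Ighv1-53 (chr12:115158403-115158522, minus) are heavy chain segments. Igkv14-126 (chr6:67896523-67896642, plus), Igkv4-91 (chr6:68768555-68768674, minus) and Igkv3-4 (chr6:70672258-70672377, plus) are kappa segments.
Ighv11-2: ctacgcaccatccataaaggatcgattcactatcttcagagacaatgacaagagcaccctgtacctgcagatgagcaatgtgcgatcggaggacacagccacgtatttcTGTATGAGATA
Ighv12-3: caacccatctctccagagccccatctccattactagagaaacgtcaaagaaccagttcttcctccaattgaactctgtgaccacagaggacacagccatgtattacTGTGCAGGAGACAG
Ighv1-53: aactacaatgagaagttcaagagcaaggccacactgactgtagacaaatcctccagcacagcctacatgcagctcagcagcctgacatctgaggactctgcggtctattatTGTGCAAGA
Igkv14-126: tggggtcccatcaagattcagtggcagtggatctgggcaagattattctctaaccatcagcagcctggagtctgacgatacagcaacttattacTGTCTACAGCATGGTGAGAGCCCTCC
Igkv4-91: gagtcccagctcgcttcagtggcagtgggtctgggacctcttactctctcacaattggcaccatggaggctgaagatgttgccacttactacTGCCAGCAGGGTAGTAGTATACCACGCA
Igkv3-4: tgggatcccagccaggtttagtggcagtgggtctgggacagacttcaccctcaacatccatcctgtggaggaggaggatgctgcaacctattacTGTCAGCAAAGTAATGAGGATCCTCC

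How far a count can be assigned to a segment depends on such sequences. For 83 of the 139 members every 100-base window of the transcript was unique among V transcripts, and for 3 fewer than 50% of the windows were (Ighv1-71 3.08%, Ighv1-62-2 9.68% and Igkv6-20 44.2%), so counts of these 3 are uncertain. Ighv11-2 has a near copy, Ighv11-1, which differs at 4 of 353 coding bases, 2 of them within the last 120, in capitals in this line (chr12:113981879-113981998, minus strand).
Ighv11-1: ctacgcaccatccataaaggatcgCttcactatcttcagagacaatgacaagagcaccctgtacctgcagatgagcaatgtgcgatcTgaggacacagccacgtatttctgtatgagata
Ighv11-1 summed to 424 counts over the 9 libraries against 113632 for Ighv11-2, so the copy received few of the reads. Iglv1 and Iglv2, which differ at 11 of 351 coding bases and at 4 of the last 120, can exchange reads at the identical stretches (chr16:19085017-19085136 and chr16:19260401-19260520, minus strand, differing bases in capitals).
Iglv1: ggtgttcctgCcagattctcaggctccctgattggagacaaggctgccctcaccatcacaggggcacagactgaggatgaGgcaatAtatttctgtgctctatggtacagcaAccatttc
Iglv2: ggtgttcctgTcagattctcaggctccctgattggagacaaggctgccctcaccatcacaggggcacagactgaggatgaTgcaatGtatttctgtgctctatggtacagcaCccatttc

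The 9 libraries held 31234177 to 41815573 counts. Of these, the V rows took 0.406%, 0.384% and 0.417% in CIA with luteolin, 0.218%, 0.202% and 0.182% in CIA and 0.181%, 0.187% and 0.202% in control, and the members held 97.3% to 98.6% of V counts. Set against its label, Cd4 stood at 106, 106 and 98.5 CPM (counts per 1000000 counts of the library, scaled with TMM factors) in CIA with luteolin and 82.1, 151 and 150.3 in CIA, but at 3.65, 2.46 and 2.66 in control, so the control libraries go against the label of the cell type. Summed over 11 T cell genes, Cd4 among them, the level was 558 to 590.2 CPM in CIA with luteolin, 512 to 779.9 in CIA and 345 to 404 in control. B cell, plasma cell, neutrophil and macrophage genes were detected in all 3 groups. Summed over 12 B cell genes (Cd79a, Ms4a1 and others, none at 0 in any library) the level was 633 to 776 CPM in CIA with luteolin, 458 to 2434 in CIA and 2939 to 3113 in control. CIA replicate 3 had the lowest sum and CIA replicate 1 the highest sum of the 6 CIA and luteolin libraries.

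V segment RNA was more abundant in CIA with luteolin than in either other group, mostly through Igh and Igk. The summed level of the members was 3965, 3713 and 4079.7 CPM in CIA with luteolin, 2111, 1990.0 and 1888 CPM in CIA and 1792, 1801 and 1948 CPM in control. The luteolin libraries lay above all others, while CIA and control overlapped. The ratio of group means was 1.96 for CIA with luteolin over CIA, 1.08 for CIA over control and 2.12 for CIA with luteolin over control. Without the largest segment of each locus (Ighv11-2, Igkv14-126 and Iglv3) the sums were 3083 to 3342 CPM in CIA with luteolin, 1334 to 1508 in CIA and 1518 to 1568 in control. Every CIA library then lay below every control library, the nearest at 1508 against 1518 (ratio of means 0.918). These segments were picked by their counts in these same libraries. Ighv11-2 and Igkv14-126, with more counts than Iglv3, were higher in CIA than in control, so leaving them out lowers CIA by itself. The Igh sum was 2610.1, 2473 and 2727 CPM in CIA with luteolin, 1249, 1179 and 1131 in CIA and 1137, 1154 and 1225 in control. For Igk it was 1268, 1148 and 1263 CPM in CIA with luteolin, 754, 722 and 697 in CIA and 514, 509 and 591 in control, so that here all CIA libraries also lay above control. The Igl sum was 86.2, 92.3 and 89.4 CPM in CIA with luteolin, 108, 88.8 and 60.2 in CIA and 140.3, 138 and 132 in control, highest in control with CIA and CIA with luteolin overlapping. The lambda locus took 6.37%, 7.44% and 6.61% of light chain V counts in CIA with luteolin, 12.6%, 10.9% and 7.96% in CIA and 21.4%, 21.4% and 18.3% in control, with no overlap between any of the 3 groups.

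**Figure D1:**
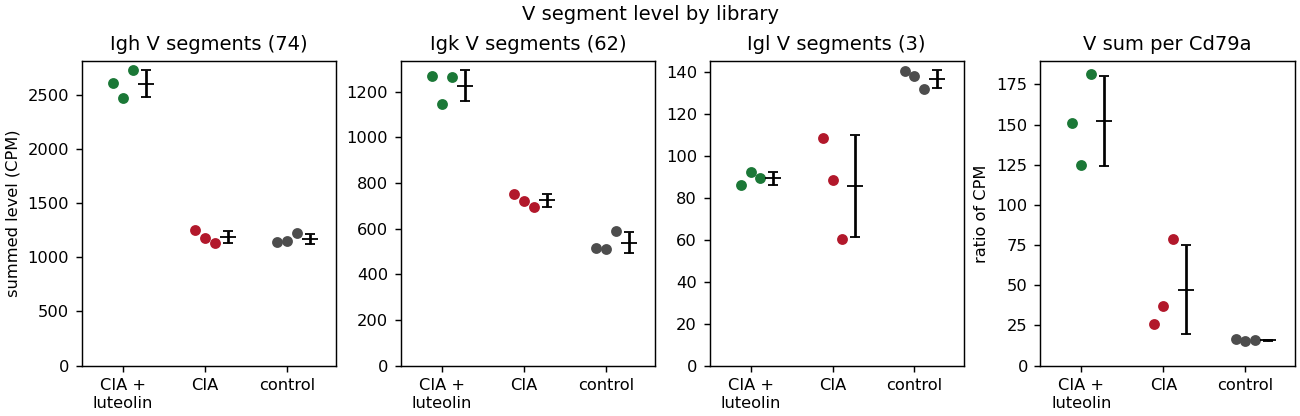
Summed level of the V segments of each locus (CPM, from 0) and the ratio of the summed V level to Cd79a, by library in CIA with luteolin, CIA and control. Points are libraries and the bars beside them are the mean ± SD (n = 3). The luteolin libraries sit highest for Igh (2473 to 2727) and Igk (1148 to 1268), the control libraries highest for Igl (132 to 140.3).

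Each segment was tested with edgeR's quasi-likelihood test across all 19348 genes that passed the filter, with Benjamini-Hochberg adjustment over them and a threshold of 0.05. In CIA with luteolin against CIA, 114 of 139 members rose and 0 fell, where 23.1% of all tested genes were called higher and 24.2% lower. The 114 comprised 70 of 74 Igh, 42 of 62 Igk and 2 of 3 Igl members. The median log2 fold change of the members was 1.04, against -0.04 over all tested genes. At an added fold of at least 2, 73 members passed. The share of all tested genes past that fold is not given here, so this count has no background. Without CIA replicate 3, 1 member was called lower. The count minimum was applied over all 3 groups, and 24 members reached it only with the luteolin libraries, 3 only with the CIA libraries and 9 only with the control libraries, so that a difference of such a member from the other groups is favoured by the choice. Of the 115 members that reached it without the luteolin libraries and also without the CIA libraries, 97 rose and 0 fell.

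In CIA against control, 19 members rose, 37 fell and 83 did not pass, with 26.6% of all tested genes called higher and 24.5% lower, so the share of members called higher lay below that of all genes and the share called lower close to it. The median over the members was -0.26, against -0.01 over all tested genes. By locus, 7 Igh members rose and 32 fell, 12 Igk members rose and 3 fell, and of the 3 Igl members 0 rose and 2 fell. Of the 130 members that reached the count minimum without CIA and also without control libraries, 19 rose and 35 fell. The count of falls was 59 without CIA replicate 1 and 27 to 34 without any other library. In CIA with luteolin against control, 93 members were called higher, 2 lower (Iglv3 and Igkv4-81) and 44 did not pass, with 24.2% of all genes called higher and 20.8% lower. Of the 114 that reached the count minimum without luteolin and also without control libraries, 85 rose and 1 fell. Since both comparisons with luteolin libraries share them, and both comparisons with control share the control, their counts are not independent of one another. CIA against control and CIA with luteolin against CIA share the CIA libraries with opposite sign. A deviation of the CIA libraries thus moves these comparisons in opposite directions, in level and in usage. The 63 V rows under the count minimum that passed the filter had 19 higher and 0 lower calls in CIA with luteolin against CIA, and 1 higher and 6 lower in CIA against control.

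**Figure D2:**
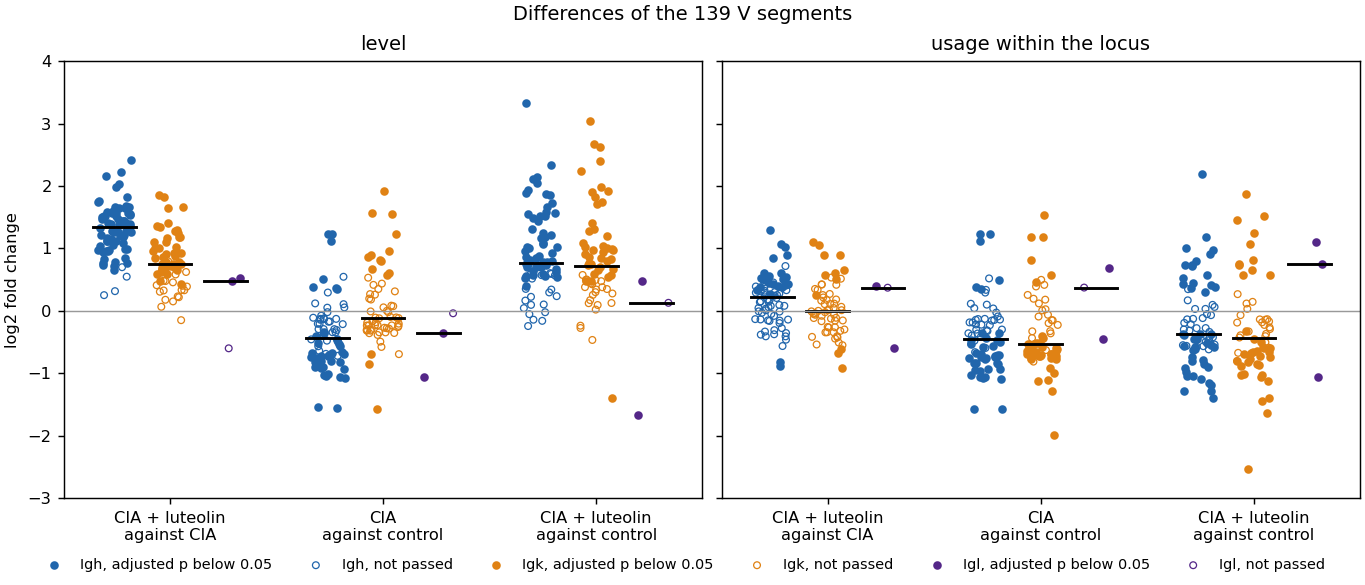
Log2 fold change of each of the 139 V segments in level (left) and in usage within its locus (right), for the 3 comparisons. Each point is a segment, filled where the adjusted p of the edgeR test was below 0.05, and black bars are medians by locus. In level, points of CIA with luteolin against CIA lie mostly above 0 (median 1.34 for Igh and 0.75 for Igk), and Igh points of CIA against control mostly below 0 (median -0.43).

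The counts were concentrated on a few segments, for Igh most so in CIA. For Igk, CIA and CIA with luteolin overlapped in the share of the leading 5 segments. Ighv11-2 held the largest share of Igh counts in every library: 18.4%, 17.7% and 19.4% in CIA with luteolin, 31.2%, 32.9% and 34.0% in CIA and 12%, 11.7% and 18.1% in control. It stayed first in each group when counts were divided by exonic length, at 15.7% of Igh members in CIA with luteolin, 28.6% in CIA and 11.8% in control. Second by count came Ighv1-53 in CIA with luteolin and in CIA, and Ighv10-1 in control. Among kappa segments the largest mean share belonged to Igkv3-4 in CIA with luteolin (15.9%), and to Igkv14-126 in CIA (20%) and in control (8.86%). The leading 5 segments of a library held 43.8% to 45.6% of Igh counts in CIA with luteolin, 49.0% to 57.0% in CIA and 34.1% to 37.5% in control. For Igk these shares were 42% to 43.8% in CIA with luteolin, 42.4% to 51.8% in CIA and 28.9% to 34.4% in control.

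Ighv11-2 and Igkv14-126 are known in the mouse as the heavy and light chain segments of a recurrent B-1a cell receptor that binds phosphatidylcholine, and Ighv12-3 with Igkv4-91 form the other such pair. B-1a cells are a self-renewing B cell lineage of the body cavities and spleen that makes natural IgM. These 4 segments are given together because of that background, a choice made with their values known. Each rose in CIA against control and none differed past the threshold in level between CIA with luteolin and CIA.

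Ighv11-2 was at 486, 443 and 536 CPM in CIA with luteolin, 396, 394 and 388 in CIA and 139, 137 and 226 in control. The 3 groups did not overlap, and control replicate 3 stood above the other 2 control libraries. The log2 fold change was 1.23 ± 0.17 in CIA against control (SE, edgeR, adjusted p = 0.000242) and 0.32 ± 0.17 in CIA with luteolin against CIA (adjusted p = 0.144, past the threshold without the filter on low counts or in a fit of the 6 libraries alone). Igkv14-126 was at 169, 154 and 173 CPM in CIA with luteolin, 144, 158 and 145 in CIA and 38.9, 43.5 and 69.6 in control. CIA with luteolin and CIA overlapped (0.15 ± 0.18, adjusted p = 0.51) and both lay above control (1.56 ± 0.18 for CIA, adjusted p = 9.33e-05). Control replicate 3 was again the highest control library.

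Ighv12-3 was far less abundant, at 7.52, 6.42 and 7.42 CPM in CIA with luteolin, 5.39, 5.82 and 6.75 in CIA and 2.58, 2.00 and 3.07 in control (1.24 ± 0.18 in CIA against control, adjusted p = 0.000292). Its partner Igkv4-91 was at 39.9, 38.7 and 38.5 CPM in CIA with luteolin, 38.5, 40.4 and 51.1 in CIA and 12.9, 12.3 and 19.0 in control (1.56 ± 0.17, adjusted p = 5.42e-05). Both were higher in every CIA library than in any control library. The ratio of Ighv11-2 to Igkv14-126 counts stayed between 2.87 and 3.10 in CIA with luteolin, 2.49 and 2.75 in CIA and 3.16 and 3.57 in control. The ratio of Ighv12-3 to Igkv4-91 was 0.166 to 0.193 in CIA with luteolin, 0.132 to 0.144 in CIA and 0.162 to 0.200 in control. Bulk counts do not show which chains shared a cell.

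**Figure D3:**
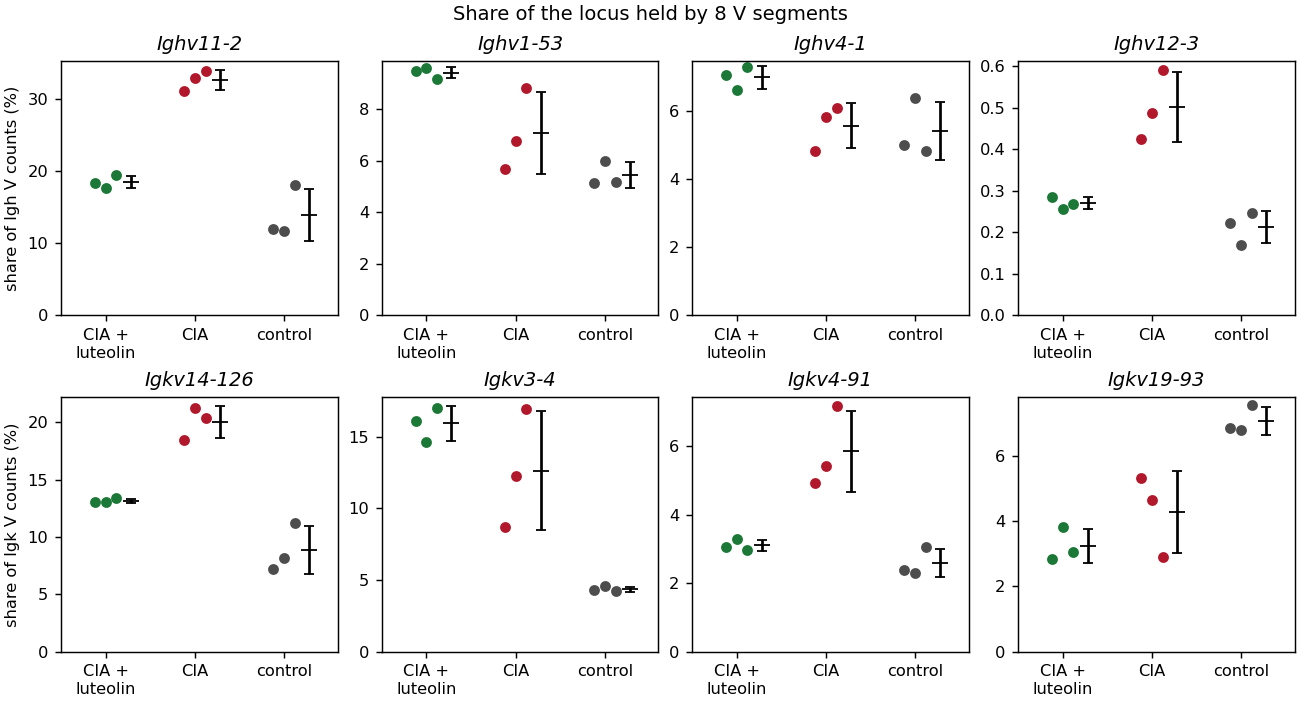
Share of the V counts of the locus (percent, axes from 0) held by 4 Igh and 4 Igk segments in each library of CIA with luteolin, CIA and control. Points are libraries and the bars are the mean ± SD (n = 3). Ighv11-2, Ighv12-3, Igkv14-126 and Igkv4-91 are highest in CIA, Igkv19-93 is highest in control, and Igkv3-4 is lowest in control with CIA libraries spread between 8.68% and 16.9%.

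Usage, the level of a segment relative to all V counts of its locus, was tested in the same model with the locus total as offset for the V rows. Other features kept their level scaling, so the shares over all tested features given with usage mostly describe level. In CIA with luteolin against CIA 32 members rose in usage and 6 fell, with 22.5% of all tested features called higher and 24.3% lower. The share of members called higher thus lay close to that of all features, and the share called lower below it. The 6 that fell comprised the 4 segments of the phosphatidylcholine pairs with Igkv1-135 and Iglv3. Usage fell by 0.82 ± 0.14 for Ighv11-2 (log2, SE, edgeR, adjusted p = 0.00105), by 0.61 ± 0.14 for Igkv14-126 (adjusted p = 0.00456), by 0.89 ± 0.17 for Ighv12-3 (adjusted p = 0.00159) and by 0.91 ± 0.15 for Igkv4-91 (adjusted p = 0.000655). Without CIA replicate 3 the falls numbered 19.

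In CIA against control 13 members rose in usage and 68 fell, with 26.6% of all tested features called higher and 24.7% lower. The same 4 segments were among the 13, at 1.23 ± 0.15 for Ighv11-2 (edgeR, adjusted p = 0.000106), 1.18 ± 0.14 for Igkv14-126 (adjusted p = 0.000107), 1.23 ± 0.18 for Ighv12-3 (adjusted p = 0.000299) and 1.18 ± 0.15 for Igkv4-91 (adjusted p = 0.000168). In CIA with luteolin against control 30 rose and 57 fell, with 23.8% called higher and 21.2% lower over all tested features. Shares sum to 100% within a locus, so a rise of the leading segments lowers the rest. With TMM factors over the segments of the locus in place of the locus total, the split was 14 higher and 19 lower in CIA with luteolin against CIA, 35 and 14 in CIA against control, and 38 and 26 in CIA with luteolin against control. The 4 segments kept their usage calls in both of the first comparisons under that scaling.

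Evenness was summarised as the effective number of segments, the exponential of the Shannon entropy of the members' shares, which would be 74 for Igh and 62 for Igk if all were used equally. For Igh it was 31.2, 32.3 and 30.7 in CIA with luteolin, 24.7, 22.2 and 20.3 in CIA and 39.9, 39.7 and 35.6 in control, with no overlap between the groups. For Igk it was 29.8, 30.7 and 29.1 in CIA with luteolin, 30.9, 26.4 and 23.7 in CIA and 41.7, 40.8 and 37.5 in control, so control stood above both and the CIA range enclosed that of luteolin. As few as 7 Igh segments held 50% of Igh counts in each luteolin library, 6, 5 and 4 in CIA and 10, 10 and 9 in control. For Igk 8 segments did so in each luteolin library, 8, 6 and 5 in CIA and 12, 12 and 10 in control.

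The effective numbers lay closer together without the leading segments. Without Ighv11-2 the effective number of Igh segments was 37.9, 38.9 and 38.4 in CIA with luteolin, 43.9, 40.3 and 36.9 in CIA and 43.6, 43.1 and 44.5 in control, and CIA no longer stood below CIA with luteolin. Without Igkv14-126 and Igkv3-4 that of Igk was 39.6, 39.5 and 39.8 in CIA with luteolin, 40.5, 39.3 and 37.2 in CIA and 41.8, 41.5 and 39.8 in control. These segments were left out after their values were seen. Leaving out segments whose share differs between groups moves the effective numbers by itself, so this tests no cause.

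**Figure D4:**
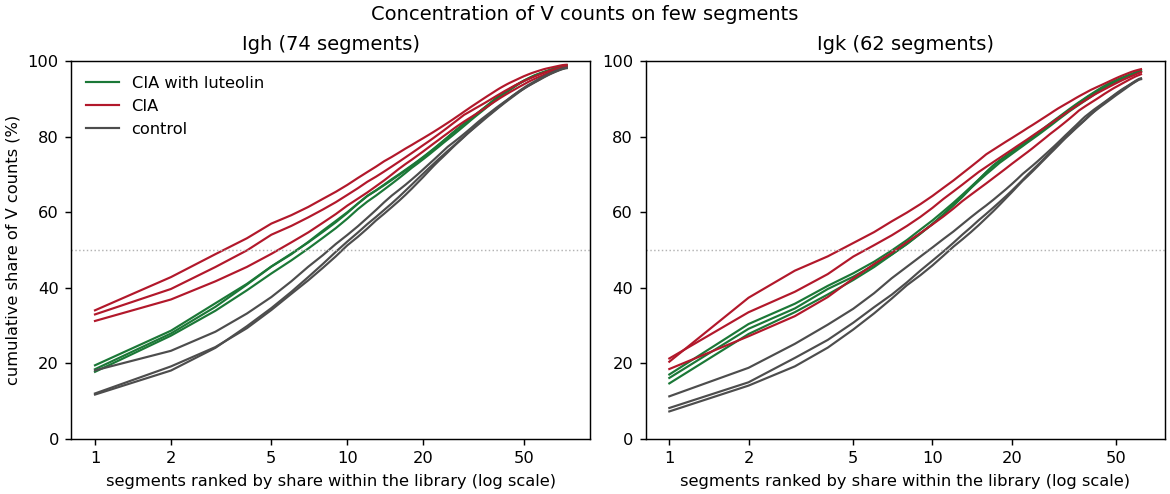
Cumulative share of V counts (percent) against the number of segments, ranked by share within each library (log scale), for 74 Igh and 62 Igk segments, with 1 line for each library of CIA with luteolin, CIA and control. The dotted line marks 50%. CIA lines start highest for Igh, at 31.2% to 34.0% on the first segment, and control lines lowest, at 11.7% to 18.1%.

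Among the other kappa segments, Igkv3-4 showed the widest spread between groups. It was at 209, 173 and 221 CPM in CIA with luteolin, 67.7, 91.1 and 121 in CIA and 23.0, 24.3 and 26.1 in control, with no overlap. The log2 fold change was 1.11 ± 0.18 in CIA with luteolin against CIA (edgeR, adjusted p = 0.000548), 1.93 ± 0.18 in CIA against control (adjusted p = 2.75e-05) and 3.04 ± 0.19 in CIA with luteolin against control (adjusted p = 1.78e-06). In CIA with luteolin against CIA the Igk sum also rose (log2 ratio of means 0.76). The usage of Igkv3-4 did not pass there, except without CIA replicate 3 (0.61). Igkv8-27 rose in level in the same 3 comparisons, at 70.2, 55.2 and 61.3 CPM in CIA with luteolin, 16.5, 17.7 and 25.1 in CIA and 10.3, 8.81 and 11.4 in control. Igkv5-39 did as well, at 36.3, 33.4 and 36.0 CPM in CIA with luteolin, 8.65, 9.86 and 11.5 in CIA and 5.15, 5.53 and 5.86 in control. Igkv4-55 and the low Igkv3-3, which reached the count minimum only with the luteolin libraries, followed the same order of group means, at 42 ± 1.37, 16.6 ± 4.18 and 8.91 ± 0.954 CPM for Igkv4-55 and 3.98 ± 0.384, 1.76 ± 0.319 and 0.745 ± 0.110 CPM for Igkv3-3 in CIA with luteolin, CIA and control (SD, n = 3).

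Igkv19-93 and Igkv1-135 held a smaller share of the locus in CIA and in CIA with luteolin than in control. Igkv19-93 was at 36.8, 45.1 and 39.7 CPM in CIA with luteolin, 41.6, 34.5 and 20.6 in CIA and 36.8, 36.3 and 46.9 in control. The groups overlapped in level, but its share was 3.24% ± 0.522, 4.29% ± 1.26 and 7.07% ± 0.424 in CIA with luteolin, CIA and control (SD, n = 3). Igkv1-135 had shares of 1.87% ± 0.118, 3% ± 0.820 and 4.93% ± 0.157 in the same order, with levels of 23.6 ± 2.69, 22.6 ± 7.15 and 27.9 ± 3.2 CPM. In CIA against control the usage falls of Igkv19-93 and Igkv1-135 lost their calls with TMM over the segments of the locus (-0.25 and -0.24). Their levels did not pass in that comparison, but did without CIA replicate 1 (-0.54 and -0.56), and that of Igkv19-93 also without the filter on low counts. Igkv10-96 was at 68.3 ± 1.37 CPM in CIA with luteolin, 33.7 ± 6.34 in CIA and 33.8 ± 6 in control, with shares of 5.44% ± 0.328, 4.51% ± 0.653 and 5.97% ± 0.755 in the same order (SD, n = 3). Igkv4-81 was at 1.54, 2.34 and 1.45 CPM in CIA with luteolin, 2.36, 1.43 and 0.893 in CIA and 4, 4.15 and 6.04 in control. It had 368 counts outside the control libraries and became a member through them, so these levels are given as a description.

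Heavy chain segments other than Ighv11-2 and Ighv12-3 rose mainly with luteolin. Ighv1-53, of the large Ighv1 family, was at 249.9, 239.8 and 253 CPM in CIA with luteolin, 72.2, 80.6 and 101 in CIA and 59.3, 70.5 and 64.7 in control (1.55 ± 0.12 in CIA with luteolin against CIA, edgeR, adjusted p = 3.51e-06). Its smaller rise in CIA against control (0.38 ± 0.12, adjusted p = 0.0194) was lost without control replicate 1 or 3 and in a fit of the 6 libraries alone. Ighv4-1 followed at 186, 165 and 200.5 CPM in CIA with luteolin, 61.0, 69.5 and 69.4 in CIA and 57.9, 74.8 and 60.2 in control, where CIA and control overlapped. Ighv10-1 was at 155, 135 and 142 CPM in CIA with luteolin, 48.4, 52.7 and 48.1 in CIA and 83.0, 67.4 and 63.1 in control, and fell in CIA against control (-0.52 ± 0.11, edgeR, adjusted p = 0.00269). The largest rise with luteolin against CIA was that of Ighv1-77, at 18.7, 20.6 and 20 CPM in CIA with luteolin, 4, 3.69 and 3.37 in CIA and 13.5, 11.2 and 7.56 in control (2.42 ± 0.19, adjusted p = 4.6e-06). Its level in CIA was below control as well (-1.54 ± 0.19, adjusted p = 0.000129). Ighv3-5 was at 13.7, 11.3 and 12.8 CPM in CIA with luteolin, 1.95, 2.69 and 3.51 in CIA and 0.6, 1.54 and 1.65 in control. It had 404 counts outside the luteolin libraries and became a member through them, so these levels are given as a description. Ighv1-54, Ighv5-6, Ighv1-9 and Igkv10-94 also rose with luteolin against CIA, by log2 fold changes of 1.85 to 2.15. Ighv1-84, which reached the count minimum only with the luteolin libraries, averaged 5.49 ± 0.157 CPM in CIA with luteolin, 1.53 ± 0.750 in CIA and 2.87 ± 0.816 in control (SD, n = 3).

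Besides Ighv1-77 and Iglv3, the segments that fell in CIA against control by at least 1 on the log2 scale included Ighv2-6 (-1.07 ± 0.14), Ighv4-2 (-1.07 ± 0.34, lost without CIA replicate 2 or control replicate 3), Ighv8-8 (-1.04 ± 0.23) and Ighv1-82 (-1.02 ± 0.24). Ighv1-82 was at 38.1, 40.5 and 34.7 CPM in CIA with luteolin, 29.1, 16.3 and 12.4 in CIA and 38.4, 40.8 and 38.4 in control, with the CIA libraries well apart from each other. Ighv1-4, which would not have reached the count minimum without the control libraries, nor without the luteolin libraries, averaged 2.74 ± 0.592 CPM in CIA with luteolin, 1.03 ± 0.652 in CIA and 3.08 ± 0.821 in control (SD, n = 3). Ighv2-6 was at 9.35, 8.98 and 7.90 CPM in CIA with luteolin, 3.61, 3.04 and 3.14 in CIA and 7.55, 7.04 and 5.95 in control. By family, the 36 Ighv1 members held 42.4% ± 0.974 of Igh counts in CIA with luteolin, 34.2% ± 1.17 in CIA and 44.1% ± 1.85 in control (SD, n = 3). The 8 Igkv3 members held 22.2% ± 1.29, 18.9% ± 3.67 and 11.8% ± 0.682 of Igk counts in the same order. Their share ranged from 15.8% to 23.0% in the CIA libraries, overlapping luteolin, and Igkv3-4 alone held 15.9% of Igk counts in CIA with luteolin.

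All 3 lambda segments were members. Iglv3 (the segment also called Vx in the mouse) was at 25.5, 32.3 and 27.6 CPM in CIA with luteolin, 63.2, 45.1 and 20.9 in CIA and 95.7, 91.1 and 84.4 in control. It fell in CIA against control (-1.07 ± 0.29, edgeR, adjusted p = 0.0116), while luteolin and CIA overlapped (-0.60 ± 0.29, adjusted p = 0.118, but past the threshold at -0.93 without CIA replicate 3, and past it also without the filter on low counts). Its exons lie wholly within those of the unnamed row ENSMUSG00000120432, whose level moved with it (29.1, 36.6 and 30.6 CPM in CIA with luteolin, 71.7, 51.7 and 23.8 in CIA, 109, 104 and 99.1 in control). Iglv1 was at 45.6, 44.8 and 48.0 CPM in CIA with luteolin, 33.7, 33.1 and 29.6 in CIA and 31.9, 33.8 and 33.4 in control, a rise of 0.52 ± 0.08 with luteolin against CIA (adjusted p = 0.000506). Iglv2 was at 14.7 ± 0.773, 10.6 ± 0.819 and 13.5 ± 0.722 CPM in CIA with luteolin, CIA and control (SD, n = 3). The fall of Iglv2 in CIA against control (-0.35 ± 0.10, edgeR, adjusted p = 0.0163) was lost without control replicate 3 and without the filter.

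When the Igh members were divided into 4 parts by distance from the J segments, the second part, 618 to 1084 kb away and holding Ighv11-2, took 36.8% ± 0.839 of counts in CIA with luteolin, 47.3% ± 1.47 in CIA and 33.3% ± 2.70 in control (SD, n = 3). The most distant part, 1905 to 2570.2 kb away, took 21.3% ± 0.511, 17.8% ± 1.72 and 26.1% ± 0.477 in the same order. For Igk the nearest part, 18.4 to 505 kb away and holding Igkv3-4, took 30.5% ± 0.985, 26.8% ± 2.78 and 23.9% ± 1, and the most distant, holding Igkv14-126, 27.4% ± 0.267, 35.9% ± 1.95 and 32.8% ± 1.5.

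**Figure D5:**
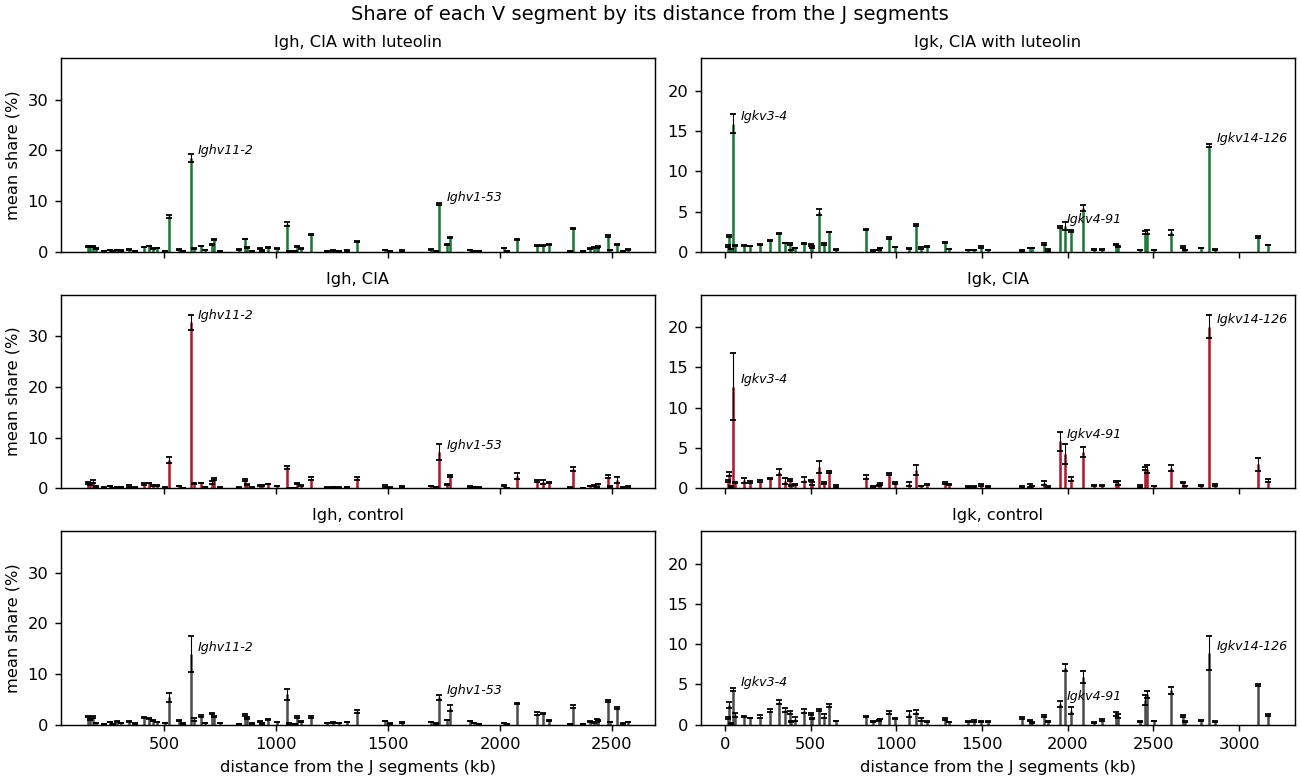
Mean share of each V segment (percent of the V counts of its locus) against its distance from the J segments (kb, mm39), for Igh (left) and Igk (right) in CIA with luteolin, CIA and control from top to bottom. Each line is a segment and error bars are SD (n = 3). The same few segments stand out in every group, with Ighv11-2 at 18.5%, 32.7% and 13.9% and Igkv14-126 at 13.1%, 20% and 8.86% from top to bottom.

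Libraries of a group differed in usage as well, the luteolin libraries least, and for Igk the CIA libraries most. The luteolin libraries also held the most Igh member counts, 91844 to 109979 against 34197 to 45466 in the others, and likewise for Igk. More counts mean less sampling noise, and this measure was not brought to equal depth. The part of the Igh counts that would have to move between segments to turn 1 library's shares into another's was 3.22% to 3.70% between luteolin libraries, 5.39% to 10.6% between CIA libraries and 5.53% to 9.24% between control libraries. Between groups it was 15.3% to 18.3% for CIA with luteolin and CIA, 14.6% to 29.0% for CIA and control and 14.4% to 21.7% for CIA with luteolin and control. For Igk it was 3.43% to 4.76% between luteolin libraries, 9.54% to 16.8% between CIA libraries and 6.19% to 9.45% between control libraries. Between groups the Igk values were 13.1% to 18.5% for CIA with luteolin and CIA and 15.0% to 33.8% for CIA and control, both overlapping the range between CIA libraries, and 21.5% to 27.6% for CIA with luteolin and control. No member was found in 1 library alone: the highest library exceeded the next by at most 1.63 times, for Igkv12-89 in luteolin replicate 1. Igkv12-98, Ighv5-9-1, Ighv5-12 and Igkv4-81 came next, at 1.6, 1.49, 1.46 and 1.46 times. Igkv12-89, Igkv12-98 and Ighv5-12 would not have reached the count minimum without the luteolin libraries, nor Igkv4-81 without the control libraries. The highest library of each was of that group, so these ratios are favoured by the choice and are given as a description.

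Constant region genes, joined to the V segments in the same transcripts, were counted as a list fixed with the B cell lists. The list counts below stand against 23.1% of all tested genes called higher and 24.2% lower in CIA with luteolin against CIA, and 26.6% and 24.5% in CIA against control. Of 12 constant region genes, 7 rose and 0 fell in CIA with luteolin against CIA, and 1 rose and 8 fell in CIA against control. V and constant levels did not move alike. The Igh V sum per unit of heavy chain constant sum was 0.465 to 0.511 in CIA with luteolin, 0.439 to 0.620 in CIA and 0.320 to 0.358 in control. Igk V per Igkc was 0.656 to 0.690, 0.723 to 0.738 and 0.570 to 0.665 in the same order. The reason was not tested. Ighm, the constant region of IgM, was at 4345, 3689.6 and 4100.3 CPM in CIA with luteolin, 2394, 1866 and 1494 in CIA and 2677, 2542 and 2691 in control. Igha, that of IgA, was at 80.0, 69.4 and 81.7 CPM in CIA with luteolin, 14, 15.6 and 22.4 in CIA and 12.4, 11.4 and 10.2 in control. Ighd, which naive B cells co-express with Ighm, was at 33.1, 41.6 and 33.5 CPM in CIA with luteolin, 74.7, 39.6 and 7.58 in CIA and 216, 214 and 189.8 in control. Of the heavy chain constant counts, class-switched genes took 21.9% to 23.7% in CIA with luteolin, 13.2% to 17.8% in CIA and 15.9% to 18.8% in control.

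Of the 12 B cell genes, 0 rose and 4 fell in CIA with luteolin against CIA, and 0 rose and 8 fell in CIA against control. Cd79a, a signalling chain of the B cell receptor, was at 26.3, 29.7 and 22.5 CPM in CIA with luteolin, 81.2, 53.3 and 24.1 in CIA and 110.5, 116 and 123 in control. The summed V level per unit of Cd79a was 151, 125 and 181 in CIA with luteolin, 26, 37.3 and 78.5 in CIA and 16.2, 15.6 and 15.9 in control, with no overlap between groups. Of the plasma cell list, 11 of 12 genes were tested, of which 5 rose and 2 fell in CIA with luteolin against CIA, and 3 rose and 3 fell in CIA against control. Its summed level was 757 to 805 CPM in CIA with luteolin, 620.0 to 684 in CIA and 516 to 562 in control. Xbp1, a transcription factor of secretory cells that other cell types also express, averaged 323 CPM in CIA with luteolin, 326 in CIA and 175 in control, a difference between CIA and control that exceeds that of the whole sum. The 3 genes that fell in CIA against control were Sdc1 (-1.37), Derl3 (-0.92) and Creld2 (-0.37), and the 2 that fell with luteolin against CIA were Prdm1 (-0.46) and Eaf2 (-0.41). Jchain, which links IgM and IgA into polymers in plasma cells, was at 122, 117 and 136 CPM in CIA with luteolin, 37.4, 52.1 and 60.5 in CIA and 22.9, 26.1 and 24.0 in control. Tnfrsf17, a plasma cell receptor gene, was near 0, with no counts in control and at most 0.201 CPM in CIA with luteolin.

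Other lists moved between the same groups: all 6 proliferation genes rose in CIA with luteolin against CIA and fell in CIA against control, and all 9 macrophage genes rose with luteolin against CIA. The macrophage list summed to 611 to 711 CPM in CIA with luteolin, 168 to 217 in CIA and 251 to 323 in control. The neutrophil list summed to 8534 to 8975 CPM in CIA with luteolin, 6671 to 11280.1 in CIA and 2046 to 2418 in control, with S100a9 the largest part. Of its 10 genes, 5 rose and 5 fell in CIA with luteolin against CIA, from Mpo (7.39) and Elane (6.73) to Mmp9 (-1.77), and 9 rose and 0 fell in CIA against control. Of 13 genes for factors that transcribe or join V segments, 1 rose (Dclre1c) and 4 fell (Pou2f1, Pou2f2, Ctcf and Lig4) in CIA with luteolin against CIA, and 3 rose and 9 fell in CIA against control. What part the make-up of the libraries had in the V segment differences was not tested.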

How the data were processed

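RNA-seq was made of 9 libraries, 3 each of CIA mice given luteolin, CIA mice and control mice, read as 150-base pairs with a stranded kit per the labels' protocols. The deposited table holds whole-number counts per gene. Per the submitters' processing notes the tools were Trimmomatic 0.36, featureCounts of Subread 1.5.1, edgeR 3.12.1 and an aligner written STRA 2.5.3a, with mm39; the labels' protocols also name another genome, CHOK1GS. The strand setting and the treatment of reads that map to several segments are not given in the sources used here. Over all rows, 73.4% of counts of 1 to 10 were even, against 52.8% of counts of 201 to 1000. In V rows the same shares were 71.0% and 62.5%. Both mates of a pair may thus be counted, and counts are not independent fragments.

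Counts of all 9 libraries were fitted with edgeR 4.0.16 in R 4.3.3 (filterByExpr, TMM, quasi-likelihood test, 2-sided, Benjamini-Hochberg over 19348 genes, threshold 0.05), and the V rows read out. For usage, the offset of a V row was the log of the summed V counts of its locus. A share is the percent of all V counts of the locus. SE is the absolute log2 fold change over the square root of F. Summed levels, shares and effective numbers carry no p-value. DESeq2 1.42.0 served as an alternative. Scripts were tested on simulated data. No pair of libraries agreed within sampling noise. The members, gene lists and tests were chosen with earlier results of these data known. The counts over members that reach the count minimum without a group were added after seeing the data.

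Named segments were the 3 largest by mean share in each locus and group, those with at least 5% of a locus in any library, all Igl members, the 8 largest rises and falls past the threshold with at least 2 CPM and no overlap between groups (5 for CIA with luteolin against control), the 5 with the highest ratio of the top library to the next, and the rows at the count minimum. Replicate numbers were not taken to pair the libraries. Sequences are from GENCODE M21 transcripts, matched by symbol for all 139 members.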

Additional observations from a re-analysis of the deposited data

How the results depend on the processing

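Across leave-one-out fits, members called lower were 0 to 1 in CIA with luteolin against CIA and 27 to 59 in CIA against control, and usage calls of CIA with luteolin against CIA were 21 to 36 higher and 6 to 19 lower. With an added fold of at least 2, 73 members were called in CIA with luteolin against CIA (73 higher), 16 in CIA against control (7 higher, 9 lower) and 49 in CIA with luteolin against control (47 higher). Without the filter, 1 member was lower in CIA with luteolin against CIA. With TMM over the segments of the locus, usage calls were 14 higher and 19 lower in CIA with luteolin against CIA, 49 in CIA against control (35 higher, 14 lower) and 26 lower in CIA with luteolin against control. That scaling turned the usage of Ighv10-1 (0.046) and Igkv10-96 (0.083) in CIA against control, and of Igkv10-96 in CIA with luteolin against control (0.31).

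As log2 ratios for CIA with luteolin against CIA, CIA against control and CIA with luteolin against control in that order, the inverse Simpson number gave 1.01, -1.53 and -0.51 for Igh and 0.28, -1.07 and -0.78 for Igk. Without Ighv11-2 the effective number of Igh segments gave -0.072 (a reversal), -0.12 and -0.19, and with counts divided by length -0.65 in CIA against control. Without Igkv14-126 and Igkv3-4 that of Igk gave -0.073 in CIA against control and -0.050 in CIA with luteolin against control, where segments with at least 100 counts gave -0.49 and every V row with a count -0.52. Leaving out Ighv11-2, leaving out the 2 kappa segments and dividing by length were chosen after seeing the data. Without the largest segment of each locus the summed level gave 1.2 in CIA with luteolin against CIA and -0.12 in CIA against control, a reversal. Leaving out Ighv11-2 and Igkv14-126, both higher in CIA than in control, lowers CIA by itself. The cause of these shifts was not tested. Leaving out segments whose share differs between groups moves these values by itself.

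With the replicate block, 116, 59 and 98 members were called in level and 36, 85 and 89 in usage, in the same order of comparisons. Of all 19348 tested genes that level fit called 4546 higher and 4602 lower, 5038 and 4756, and 4715 and 4049. The usage fit called 4439 higher and 4605 lower, 5036 and 4798, and 4638 and 4124. Same-numbered libraries correlated at 0.01 to 0.14 in their deviations from group means, and differently numbered ones at -0.18 to 0.09. Whether the numbers mark a weak shared batch was not tested, and the main fits did not pair the libraries. Low segments near the count minimum are limited by depth, and strain and cell make-up limit all comparisons.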
